A study of Mus musculus with 12 samples.

Results

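The lipoxygenases, leukotriene enzymes and epoxide hydrolases described here were 10 genes of the 50563 in the gene count table: Alox5, Alox5ap, Alox8, Alox12, Alox12b, Alox15, Lta4h, Ltc4s, Ephx1 and Ephx2. They were chosen by symbol through the GRCm38 annotation, and all 10 were found. The rule uses no measured value, but it was set with earlier results of these data known. The cortex of 12 E4FAD mice was sequenced, 7 given vehicle (CTRL) and 5 given n-6 docosapentaenoic acid (DPAn-6), a long-chain omega-6 fatty acid, as its ethyl ester. Every mouse carried APOE4+/+, the human APOE4 gene in place of mouse Apoe, and 5FAD-/+, a transgene of familial Alzheimer's disease mutations, so no mouse without that transgene was compared. DPAn-6 was given by gavage each day for 3 weeks at 700 mg per kg body weight, and the antioxidants alpha-tocopherol and palmitoyl ascorbic acid were in the gavage of both groups. The CTRL group held 2 mice of 12 months and 5 of 14 months, 4 females and 3 males by the study's methods. The DPAn-6 group held 2 mice of 12 months and 3 of 14 months, 3 females and 2 males.

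Lipoxygenases insert oxygen into polyunsaturated fatty acids such as arachidonic acid. Alox5 (5-lipoxygenase) works with its membrane partner Alox5ap to make leukotriene A4, which Lta4h hydrolyses to leukotriene B4 and Ltc4s joins to glutathione as leukotriene C4. In the brain this route is best known in microglia and other macrophages. Cytochrome P450 epoxygenases make fatty acid epoxides, which Ephx2, the soluble epoxide hydrolase, turns into diols, while Ephx1, the microsomal enzyme, is best known for the hydrolysis of foreign epoxides and also acts on fatty acid epoxides.

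Total counts on genes were 15339098 to 19500154 in CTRL and 15208803 to 26520251 in DPAn-6. Values below are log2 CPM, the log2 of a gene's reads relative to all reads on genes (CPM) with a pseudocount of 0.5, unless another scale is named. The CTRL replicate 3 library stood apart, with a correlation of 0.967 to the median of the other libraries against 0.987 to 0.994 for the other 11, so results are also given without it. Reads on the gene Gm42418 were 0.279% to 3.92% of the total in CTRL and 0.401% to 0.810% in DPAn-6. Every CTRL mouse but replicate 3 had a larger share than any DPAn-6 mouse. CTRL replicate 3 had the smallest share of all and CTRL replicate 2 the largest. The part of this library difference in the values below was not tested. Markers of excitatory and of inhibitory neurons, 6 genes each, had reads in every mouse of this cortex tissue. Choroid plexus RNA was unevenly present, with the transthyretin gene Ttr at 2.59 to 10.58 in CTRL and at 0.87 to 3.88 in DPAn-6. All CTRL mice but replicate 7 had more Ttr, at 4.06 or above, than any DPAn-6 mouse. A fit with Ttr as a covariate therefore cannot fully separate Ttr from DPAn-6, and may remove part of a DPAn-6 difference.

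Ephx1 fell in DPAn-6, and the other members did not pass the test. Of the 9 members with enough reads for the edgeR fit over 15688 genes, 7 had a fold change below 0 and 2 above it, with a median log2 fold change of −0.20 against −0.005 for all genes tested. The sign of Alox8, at −0.002, changed with the scaling. Ephx1 was the 1 member called at an adjusted p under 0.05, where 1.55% of all genes tested were called, 1.14% as lower in DPAn-6 and 0.408% as higher. Alox5ap and Ltc4s had an unadjusted p under 0.05 as well, a threshold that 14.5% of all genes tested passed, 9.02% as lower in DPAn-6. Without CTRL replicate 3, edgeR called Ephx1, Alox5ap and Ltc4s, and 953 genes of the table against 243 with it. In bulk cortex, fewer cells of a type and less RNA per cell cannot be told apart.

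**Figure D1:**
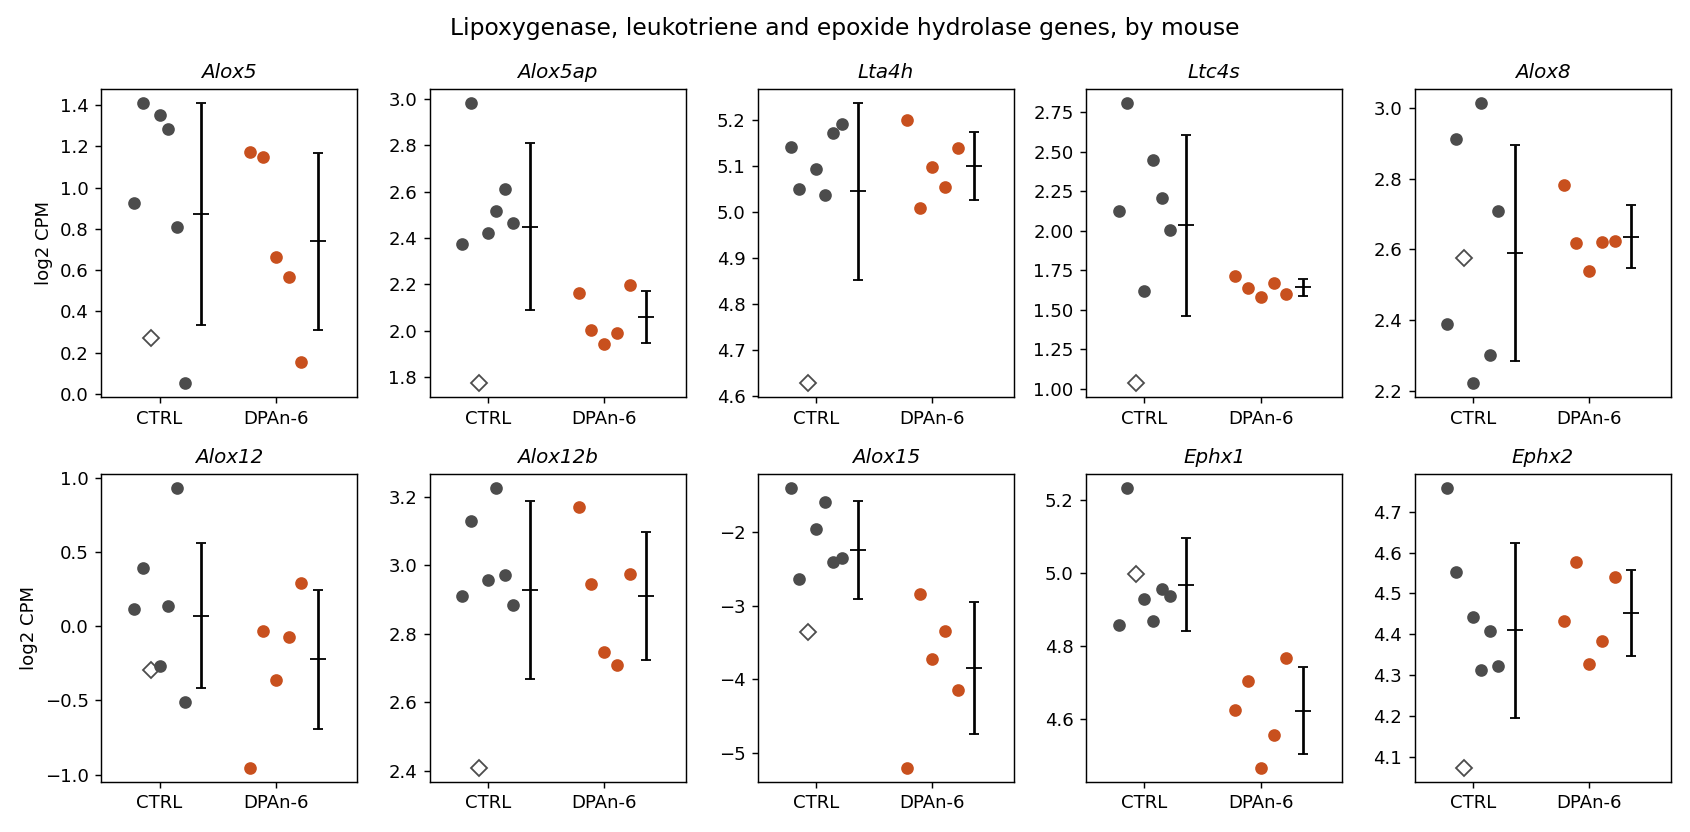
Each panel shows the log2 CPM of 1 gene in 7 CTRL mice (grey) and 5 DPAn-6 mice (orange), with CTRL replicate 3 as an open diamond and the mean with its SD beside each group. Ephx1 is the panel whose groups do not touch, the DPAn-6 points of Ltc4s lie between 1.58 and 1.72, and the points of Alox15 rest on 0 to 6 reads.

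CPM divided by the length of a gene's exons (log2 RPKM) put the epoxide hydrolases first and Alox5, Alox12 and Alox15 last. Over the 12 mice the mean log2 RPKM was 3.86 for Ephx1, 3.12 for Ephx2 and 2.46 for Lta4h. Ltc4s at 1.85, Alox5ap at 1.78 and Alox12b at 1.64 followed, then Alox8 at 0.78. Alox5 at −1.22, Alox12 at −2.08 and Alox15 at −4.21 closed the order. The level of Ephx1 was 268 times that of Alox15 and 61.5 times that of Alox12. Ltc4s exceeded Alox5ap in 9 of 12 mice by a mean of 0.07 ± 0.22 (SD), and Alox5ap exceeded Alox12b in 8 of 12 mice by 0.14 ± 0.25 (SD), so these neighbours did not differ beyond their spread. Lta4h stood above Ltc4s in 10 mice and Alox5 above Alox12 in 10 mice, while every other neighbour kept its place in 12 of 12 mice. The order was the same with the longest transcript of each gene as its length, where Ephx2 at 3.40 and Lta4h at 3.38 were nearly level.

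**Figure D2:**
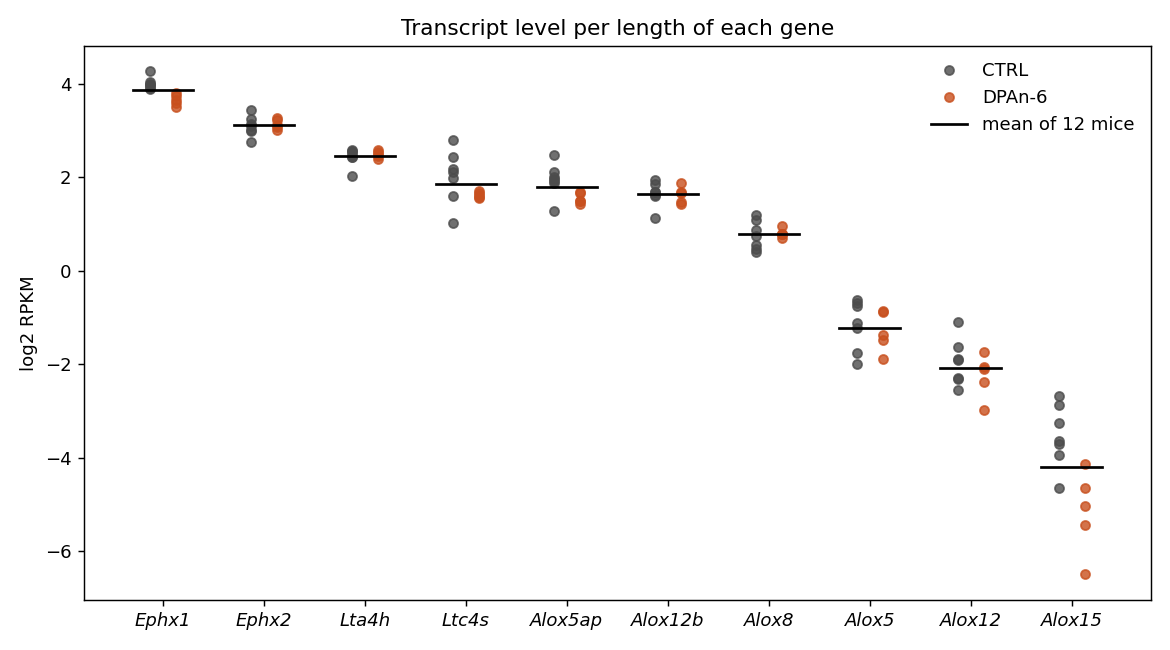
The vertical axis gives log2 RPKM, with CTRL mice in grey, DPAn-6 mice in orange and the mean of 12 mice as a line for each gene, from Ephx1 at 3.86 to Alox15 at −4.21. Ltc4s, Alox5ap and Alox12b sit close together, and the step from Alox8 at 0.78 to Alox5 at −1.22 separates the upper 7 genes from the lower 3.

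Ephx1 lies on the minus strand of chr1:180976210-181020904 (GRCm38). Its log2 CPM ran from 4.86 to 5.23 in CTRL, with a median of 4.94. In DPAn-6 it was 4.62, 4.70, 4.47, 4.55 and 4.77. Every DPAn-6 mouse lay below every CTRL mouse, a separation that 1.49% of all genes tested showed towards lower values and 3.22% in either direction. The means were 4.97 ± 0.13 (SD, n = 7) and 4.62 ± 0.12 (SD, n = 5), and the exact two-sided permutation test gave p = 0.00126, the smallest these groups allow. In edgeR the log2 fold change was −0.37 (SE 0.08, 95% interval −0.55 to −0.19), so the gene decreased by 22.6% (adjusted p 0.0403). The call sat close to its threshold. Without CTRL replicate 3 it was −0.36 (adjusted p 0.0139), and without each of the other 11 mice in turn the adjusted p was between 0.0526 and 0.149, while the unadjusted p stayed at or below 0.00227 in edgeR. With Ttr as a covariate the log2 fold change was −0.27, with an edgeR p of 0.0228 and an adjusted p of 0.632. CTRL replicate 2, the mouse with the most Ttr, also had the most Ephx1, whereas CTRL replicate 5, the second by Ttr, was the second lowest CTRL mouse for Ephx1 at 4.87.

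Ephx2, on the minus strand of chr14:66084374-66124500, showed no such separation. Its log2 CPM was 4.07 to 4.76 in CTRL, with a median of 4.41. The DPAn-6 mice stood at 4.43, 4.58, 4.33, 4.38 and 4.54. All 5 DPAn-6 mice fell inside the CTRL range, in which CTRL replicate 3 was the lowest of 12 mice. The log2 fold change was 0.01 (SE 0.10, 95% interval −0.20 to 0.22; edgeR adjusted p 0.982).

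Promoters are shown for Ephx1 and for the 2 leukotriene synthases, whose enzymes share the substrate leukotriene A4 and whose log2 fold changes were −0.51 (Ltc4s) and 0.02 (Lta4h). The sequences come from RefSeq (GRCm38.p6), which gave 7 of the 10 members, and run 5′ to 3′ on the strand of the gene. They reach from 250 bases before a RefSeq start to 50 after it. The Ephx1 stretch lies wholly inside the gene span given above, so its RefSeq start is an internal one. Capitals mark GAGGAA or its reverse complement TTCCTC, core letters bound by the macrophage factor PU.1 and its relatives.
Ephx1 promoter (chr1:181017520-181017819, minus strand): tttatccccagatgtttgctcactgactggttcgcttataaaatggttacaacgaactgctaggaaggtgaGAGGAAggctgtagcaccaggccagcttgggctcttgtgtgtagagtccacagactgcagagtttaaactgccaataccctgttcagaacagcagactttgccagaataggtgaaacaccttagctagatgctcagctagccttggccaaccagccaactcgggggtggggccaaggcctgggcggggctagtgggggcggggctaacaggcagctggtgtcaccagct
Lta4h promoter (chr10:93453146-93453445, plus strand): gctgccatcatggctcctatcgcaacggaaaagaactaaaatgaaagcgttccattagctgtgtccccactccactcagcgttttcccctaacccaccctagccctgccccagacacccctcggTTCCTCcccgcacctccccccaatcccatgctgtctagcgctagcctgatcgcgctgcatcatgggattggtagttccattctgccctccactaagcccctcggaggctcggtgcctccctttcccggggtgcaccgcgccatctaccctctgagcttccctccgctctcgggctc
Ltc4s promoter (chr11:50238483-50238782, minus strand): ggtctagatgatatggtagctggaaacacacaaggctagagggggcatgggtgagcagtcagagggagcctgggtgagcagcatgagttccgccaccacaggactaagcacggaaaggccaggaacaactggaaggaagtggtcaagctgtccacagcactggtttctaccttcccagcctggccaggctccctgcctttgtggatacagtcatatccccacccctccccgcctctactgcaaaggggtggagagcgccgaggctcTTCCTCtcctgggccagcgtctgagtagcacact
The letters stood at position −179 in Ephx1, −126 in Lta4h and 16 in Ltc4s, counted from that RefSeq start. They were found, on either strand, in 6 of the 7 member promoters and in 28.3% of 32851 promoters of the same 300 bases. Alox5, Alox12 and Alox12b were the other 3 with a match, and Alox8 had none. AGGTCA, the half-site of many nuclear receptors, was in 16.3% of all promoters and in 0 of the 7. Both are matches of letters only, and Lta4h and Ltc4s both carried the first.

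Alox5ap, on the plus strand of chr5:149264767-149288153, encodes the membrane protein that presents arachidonic acid to 5-lipoxygenase. Its log2 CPM ran from 1.78 to 2.98 in CTRL, with a median of 2.47. In DPAn-6 it was 2.16, 2.0, 1.94, 1.99 and 2.20. Of the 7 CTRL mice 6 lay above every DPAn-6 mouse, and CTRL replicate 3 was the lowest of all 12. The share of reads on Gm42418 split the mice in the same way, and its part in the Alox5ap value was not tested. The means were 2.45 ± 0.36 (SD, n = 7) and 2.06 ± 0.11 (SD, n = 5), and the exact permutation test gave p = 0.0417. The log2 fold change of −0.44 (SE 0.16, 95% interval −0.78 to −0.11) had an edgeR p of 0.0124 and an adjusted p of 0.185, so the gene was not called. Without CTRL replicate 3 it was −0.53 with an edgeR adjusted p of 0.0201, and with any other mouse left out the adjusted p was 0.215 to 0.388. With Ttr as a covariate it was −0.29 with an edgeR p of 0.160, and after removal of a trend on gene length and GC content it was −0.49 with an edgeR adjusted p of 0.0357. An antisense gene, Gm19719, shares 107 exon bases with Alox5ap and had 9 to 19 reads per mouse against 52 to 123 for Alox5ap. Without a stated strand setting, reads of a gene and its antisense partner cannot be told apart.

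Alox5 itself, on the minus strand of chr6:116410077-116461178, had 18 to 47 reads per mouse. Its log2 CPM was 0.05 to 1.41 in CTRL, with a median of 0.93. The DPAn-6 values were 1.17, 1.15, 0.66, 0.57 and 0.15. The groups lay over each other, with a log2 fold change of −0.20 (SE 0.26, 95% interval −0.75 to 0.35; edgeR adjusted p 0.796). At this depth an interval this wide holds both the fold change of Alox5ap and no change.

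Ltc4s, on the minus strand of chr11:50236461-50238616, opens the route to the cysteinyl leukotrienes. Its log2 CPM ran from 1.04 to 2.81 in CTRL, with a median of 2.12. In DPAn-6 it was 1.72, 1.64, 1.58, 1.67 and 1.60. The 5 DPAn-6 mice were nearly level, with an SD of 0.05 against 0.57 in CTRL. Of the 7 CTRL mice 5 were above them all, and CTRL replicate 3 was the lowest of 12. The log2 fold change was −0.51 (SE 0.22, 95% interval −0.99 to −0.03; edgeR p 0.0378, adjusted p 0.307), and the exact permutation test gave p = 0.179. Without CTRL replicate 3 it was −0.62 with an edgeR adjusted p of 0.0416 and an exact permutation p of 0.0130. With any other mouse left out the edgeR adjusted p was 0.250 to 0.503. In 9 of the 12 fits that left out a mouse, the unadjusted edgeR p was 0.05 or above. The mice with the most Ltc4s, CTRL replicates 2 and 5, were also those with the most Ttr, and with Ttr as a covariate the log2 fold change was −0.19 with an edgeR p of 0.489. The part of choroid plexus RNA in the value was not tested beyond this. An antisense gene, Gm26542, shares 186 exon bases with Ltc4s and had 2 to 11 reads per mouse against 31 to 109.

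Lta4h, on the plus strand of chr10:93453411-93484875, makes leukotriene B4 and also works as an aminopeptidase. Its log2 CPM was 4.63 to 5.19 in CTRL, with a median of 5.10. The DPAn-6 mice had 5.20, 5.01, 5.10, 5.05 and 5.14. All mice but CTRL replicate 3 lay between 5.01 and 5.20. The log2 fold change was 0.02 (SE 0.08, 95% interval −0.16 to 0.20; edgeR adjusted p 0.936). Among the 4 members of the leukotriene route, the 2 whose fold change had an unadjusted p under 0.05 were thus Alox5ap and Ltc4s, and the groups overlapped for all 4.

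The other lipoxygenases lie on chromosome 11. Alox8, at chr11:69183932-69197843, is the mouse 8-lipoxygenase and the counterpart of human ALOX15B. Its log2 CPM was 2.22 to 3.01 in CTRL and 2.54 to 2.78 in DPAn-6, with a log2 fold change of −0.002 (SE 0.14; edgeR adjusted p 0.998). Alox12b, at chr11:69156989-69169792, is the 12R-lipoxygenase of the skin barrier and lies on the opposite strand from Alox8, without overlap. Its log2 CPM was 2.41 to 3.23 in CTRL and 2.71 to 3.17 in DPAn-6, with a log2 fold change of −0.05 (SE 0.13; edgeR adjusted p 0.910). Neither gene separated the groups. Of 6 keratinocyte markers, Krt5 and Ivl were at 0 reads in all mice and Krt14 at 0 to 1 read, while Krt1, Krt10 and Lor had 25 to 151 reads. The sum of the 6 was 6.32 to 13.8 CPM in CTRL and 10.3 to 13.2 CPM in DPAn-6, and none of the 3 tested was called (edgeR adjusted p 0.638 to 0.981, with 0 at an unadjusted p under 0.05).

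Alox12 and Alox15, the platelet 12-lipoxygenase and the 12/15-lipoxygenase of some macrophages, were the members with the fewest reads. Alox12, at chr11:70241457-70255353, had 9 to 35 reads per mouse and a log2 CPM of −0.51 to 0.94 in CTRL. In DPAn-6 its log2 CPM was −0.95, −0.03, −0.36, −0.07 and 0.29, and the log2 fold change was −0.33 (SE 0.28, 95% interval −0.92 to 0.27; edgeR adjusted p 0.661). Of 6 platelet and megakaryocyte markers, Gp6 was at 0 reads in all mice and Ppbp at 0 to 2 reads, while Gp1bb had 92 to 304 and Itga2b 14 to 53, with log2 fold changes of 0.10 and −0.05 (edgeR adjusted p 0.833 and 0.953). Alox15, at chr11:70344152-70352031, had 6, 2, 1, 4, 6, 3 and 3 reads in the CTRL mice. In DPAn-6 it had 0, 2, 1, 1 and 1 reads, where 0 reads allow up to 0.163 CPM in that mouse. The sums were 25 reads in CTRL and 5 in DPAn-6, and the groups overlapped at 1 and 2 reads. The gene did not reach the fit, and the exact permutation test of its log2 CPM gave p = 0.00505, not adjusted for the 10 members tested in this way. Leaving out each mouse in turn gave an exact permutation p of 0.00216 to 0.0152. Single reads carried this value, since 3 of the 5 DPAn-6 mice had 1 read.

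The fold change of the members did not differ detectably between the ages. The mean log2 CPM of Ephx1 in DPAn-6 minus CTRL was −0.39 at 12 months (2 and 2 mice) and −0.30 at 14 months (5 and 3 mice). Alox5ap differed by −0.45 and −0.34, and Ltc4s by −0.44 and −0.37. The sign differed between the ages for Alox5, Alox12b, Lta4h and Ephx2, the last at −0.18 and 0.16. The edgeR interaction of group and age had an adjusted p of at least 0.905 for all 9 members, in a test that called 1 gene, or 0.00637%, of those tested. The lowest unadjusted interaction p of a member was 0.145 for Ephx2, where 4.26% of all genes had an edgeR p under 0.05. The 14-month mice alone could not reach an exact permutation p under 0.0179. Xist, read here for sex, was at 9.65 and 9.42 log2 CPM in the 12-month CTRL mice. In the 12-month DPAn-6 mice it was at 2.07 and 1.48. At 14 months it was at 9.15 to 9.60 in DPAn-6 and at 0.46 to 10.6 in CTRL. Sex and DPAn-6 thus cannot be told apart at 12 months, nor sex and age in the differences between the ages.

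Markers of brain macrophages were lower in DPAn-6, while with all mice no member of the leukotriene route was called. All 15 microglial markers had a fold change below 0, 4 of them called (Csf1r, Selplg, C1qb and C1qc), with −0.46 as their median log2 fold change, and their summed level was 1381 to 2061 CPM in CTRL against 966 to 1378 CPM in DPAn-6. Of the 8 markers of border macrophages, 6 were tested, all 6 below 0 and 3 called (Mrc1, Cd163 and F13a1). The sums of the 8 were 34.0 to 51.0 CPM against 23.4 to 32.9 CPM. Over all genes tested, 1.14% were called as lower in DPAn-6. The log2 CPM of Alox5ap minus the mean of the microglial list was −3.75 ± 0.45 in CTRL and −3.69 ± 0.17 in DPAn-6 (SD, n = 7 and 5; exact permutation p = 0.793). The difference of 0.06 had a 95% interval of −0.40 to 0.55. For Ltc4s the difference relative to the list was 0.06 (95% interval −0.63 to 0.78; exact permutation p = 0.866), and for Alox5 it was 0.32 (−0.38 to 1.01; exact permutation p = 0.314). Without CTRL replicate 3 the differences of Alox5ap and Ltc4s were −0.067 and −0.12. These genes were thus not shown to move by more or by less than the microglial list, and the list's part in their values was not tested further.

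**Figure D3:**
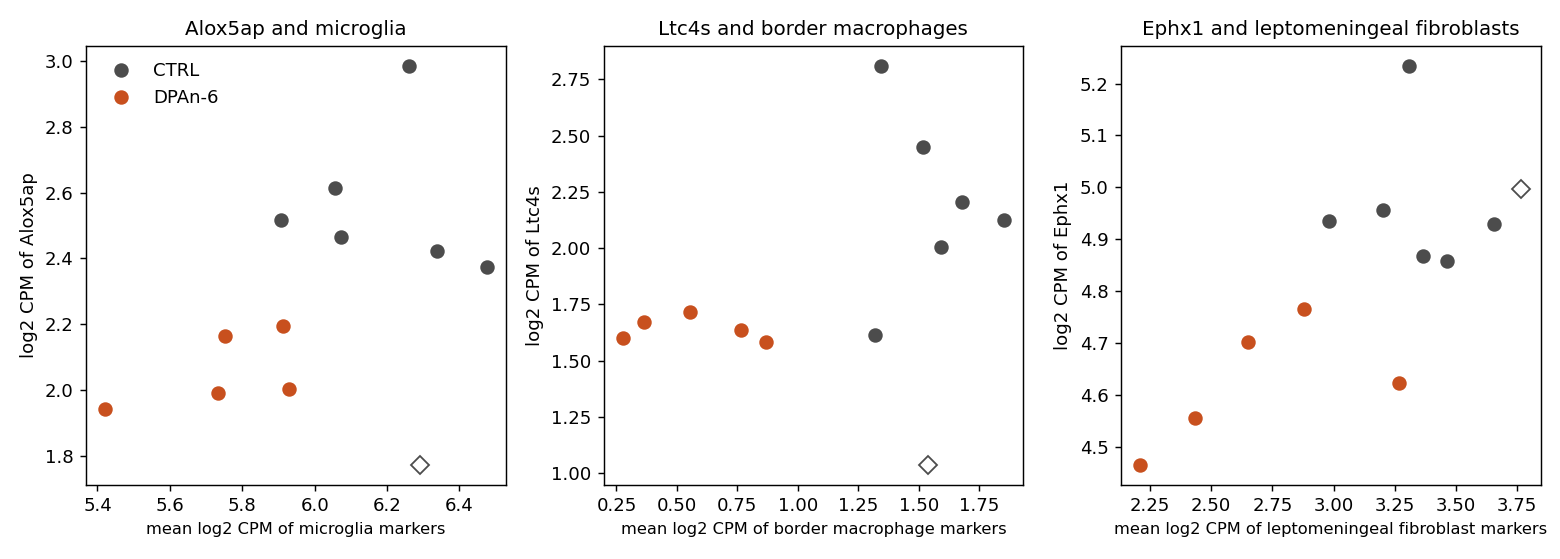
Each point is a mouse, CTRL in grey with replicate 3 as an open diamond and DPAn-6 in orange, with the log2 CPM of the gene on the vertical axis and the mean log2 CPM of a marker list on the horizontal axis. On the horizontal axis the 5 DPAn-6 mice lie below every CTRL mouse for border macrophages only. For microglia and leptomeningeal fibroblasts the groups overlap there. CTRL replicate 3 combines marker levels of the CTRL range with the lowest Alox5ap at 1.78 and Ltc4s at 1.04.

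All 8 markers of leptomeningeal fibroblasts had a fold change below 0, with 3 called (Lum, Col1a2 and Igf2), where 1.14% of all genes tested were called as lower. Their median log2 fold change was −0.68, and their sums were 121 to 245 CPM in CTRL against 74.2 to 148 CPM in DPAn-6. The 5 choroid plexus markers tested of 8 were below 0 with 0 called. Of these, 4 had an unadjusted edgeR p under 0.05, which 9.02% of all genes tested had as lower. The choroid plexus sums were 13.2 to 1691 CPM against 9.14 to 26.0 CPM. Mast cells are a known source of leukotriene C4, and the sum of their 7 markers was 1.08 to 2.18 CPM in CTRL and 0.503 to 1.66 CPM in DPAn-6. Hdc, the 1 tested, had 8 to 40 reads and a log2 fold change of −0.79 (edgeR p 0.0160, adjusted p 0.210), while Cma1 and Fcer1a were at 0 reads in all mice. The sum of 8 neutrophil markers was 20.8 to 40.2 CPM in CTRL and 14.9 to 22.7 CPM in DPAn-6. Most of this sum was reads of Csf3r, so it follows 1 gene and does not show a change of neutrophils. Csf3r, the 1 tested, had 267 to 532 reads and a log2 fold change of −0.42 (edgeR p 0.00468, adjusted p 0.119), Ngp and S100a9 reached 50 and 29 reads, and Ly6g had 0 to 1 read. The part of these cells in the leukotriene genes' values was not tested. The part of leptomeningeal and choroid plexus RNA in the Ephx1 value was not tested beyond the Ttr covariate above.

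The rest of the pathway was read from 60 further genes, of which 59 were in the table, 11 had 0 reads in all mice and 30 were tested. Their median log2 fold change was −0.05, with 21 below 0 and 9 above it. In edgeR 2 fell, Cmklr1 and Abcc4, and 0 rose, beside 1.55% called over all genes. At an unadjusted p under 0.05, which 14.5% of all genes tested had, there were 6 lower and 2 higher genes of the 30. DESeq2 called 6, of which 1 was higher, beside 687 over the whole table. Without CTRL replicate 3 edgeR called 7, of which 6 were lower and 1 higher, beside 953 over the whole table. Of the Cyp2c epoxygenases, 10 had 0 reads in all mice and Cyp2c55 had 0 to 1. Of the Cyp2j genes, Cyp2j6, Cyp2j9 and Cyp2j12 were tested, and the others had at most 14 reads in any mouse.

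**Figure D4:**
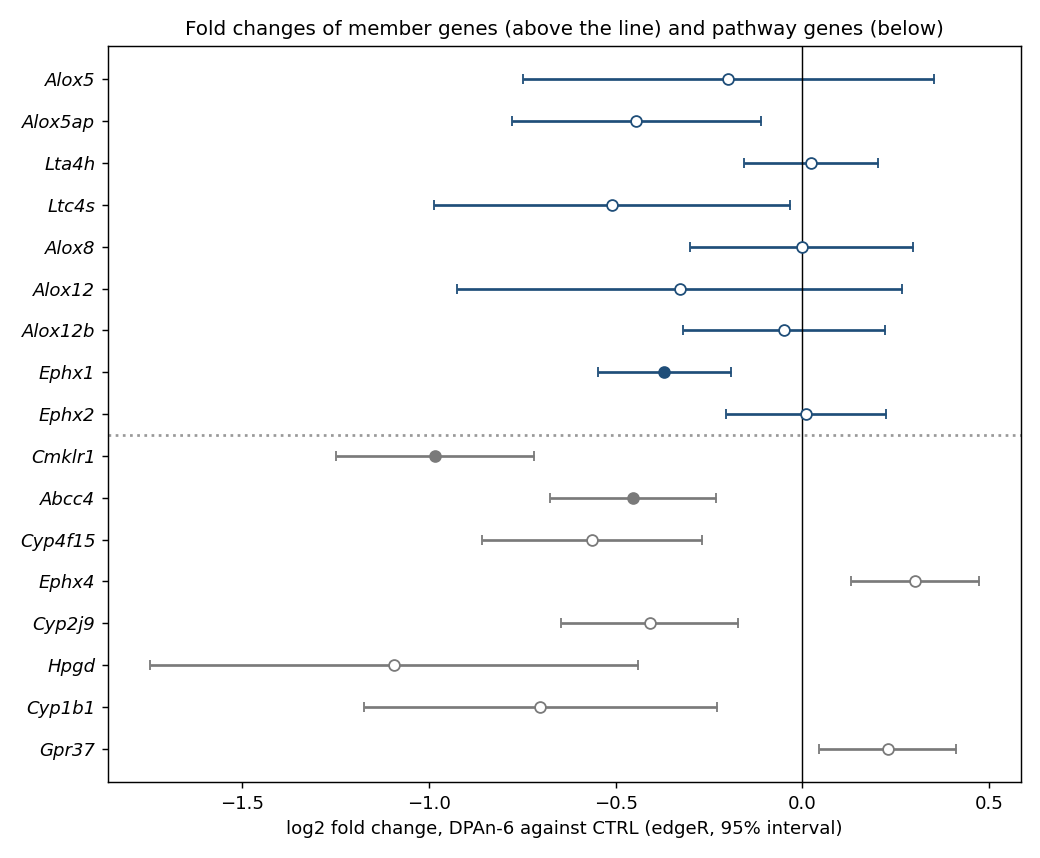
Points are edgeR log2 fold changes of DPAn-6 against CTRL with 95% intervals, for the 9 tested members (blue) and for the 8 other pathway genes with an unadjusted p under 0.05 (grey), filled where the adjusted p is under 0.05. Ephx1 at −0.37, Cmklr1 at −0.98 and Abcc4 at −0.45 are the filled points, and Lta4h, Alox8 and Ephx2 sit close to 0.

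Cmklr1, the chemerin receptor that resolvin E1 is also reported to bind, had the lowest adjusted p of the list and fell. Its log2 CPM was 3.32 to 4.04 in CTRL, with a median of 3.68. The DPAn-6 values were 2.88, 2.91, 2.43, 2.62 and 2.74. No DPAn-6 mouse reached the lowest CTRL mouse, a separation that 1.49% of all genes tested showed towards lower values. The log2 fold change was −0.98 (SE 0.12, edgeR adjusted p 0.00193), so the gene decreased by 49.4%. The receptors of leukotriene B4, Ltb4r1 and Ltb4r2, had 0 to 5 reads per mouse and were not tested. Cysltr1, the receptor of leukotriene D4, had 9 to 37 reads and a log2 fold change of −0.04 (SE 0.36; edgeR adjusted p 0.979). CTRL replicate 3 held the 37 reads and was the highest mouse at 1.29 log2 CPM. The CTRL median was −0.43, below the DPAn-6 values of −0.20 to 0.18. The fold change of Cysltr1 without CTRL replicate 3 is not given here, so a level gene is not shown. Gpr37, a receptor abundant in oligodendrocytes, had a log2 fold change of 0.23 (SE 0.09; edgeR p 0.0176, adjusted p 0.221). The oligodendrocyte markers had a median of 0.27, with 6 of 8 above 0 and 0 called. Of them, 5 had an unadjusted edgeR p under 0.05, each as higher in DPAn-6. Over all genes tested 14.5% passed that threshold in either direction, and 9.02% as lower. With Ttr as a covariate the log2 fold change of Gpr37 was 0.05 with an edgeR p of 0.559.

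Among the genes of conversion and clearance, Abcc4, an efflux pump that carries prostaglandins and leukotrienes, was at 4.47 to 4.98 log2 CPM in CTRL and at 4.21 to 4.45 in DPAn-6. Its groups did not overlap, as in 1.49% of all genes tested towards lower values, and the log2 fold change was −0.45 (SE 0.10, edgeR adjusted p 0.0442). The call was kept in 3 of the 12 edgeR fits that left out a mouse, and the adjusted p reached 0.142 in the others. Hpgd, which oxidises prostaglandins and lipoxins, was at 1.94 to 3.70 in CTRL and at 1.69, 0.91, 1.76, 1.26 and 1.83 in DPAn-6. Its log2 fold change of −1.09 (SE 0.31) had an edgeR adjusted p of 0.0954, and without CTRL replicate 3, the highest mouse, it was −0.78 with an adjusted p of 0.0230. Cyp4f15, of the family that hydroxylates leukotriene B4, was at 3.83 to 4.66 in CTRL and at 3.29 to 3.90 in DPAn-6, with a log2 fold change of −0.56 (SE 0.14; edgeR adjusted p 0.0579). Its relatives Cyp4f13, Cyp4f14, Cyp4f16 and Cyp4f17 had log2 fold changes of −0.05 to 0.25. Reads that match several of these close copies may be missing from the counts.

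In the epoxide branch, Ephx4, a further gene of the epoxide hydrolase family, pointed the other way from Ephx1. It was at 5.23 to 5.73 log2 CPM in CTRL and at 5.83, 5.74, 5.89, 5.84 and 5.69 in DPAn-6, so 4 of 5 DPAn-6 mice lay above every CTRL mouse. The log2 fold change was 0.30 (SE 0.08; edgeR adjusted p 0.0794). Cyp2j9, a P450 of the arachidonic acid epoxygenase family, was at 4.88 to 5.54 in CTRL and at 4.61 to 4.77 in DPAn-6, without overlap. Such a separation towards lower values was found in 1.49% of all genes tested. Its log2 fold change was −0.41 (SE 0.11; edgeR adjusted p 0.0859), and −0.31 with an adjusted p of 0.00929 without CTRL replicate 3. Cyp1b1, which also acts on fatty acids and steroids, was at 1.98 to 3.13 in CTRL and at 1.38 to 2.23 in DPAn-6, with a log2 fold change of −0.70 (SE 0.22; edgeR adjusted p 0.139). CTRL replicate 3 was the highest mouse for Hpgd, Abcc4, Cyp2j9 and Cyp1b1, and it had the highest sum of leptomeningeal fibroblast markers, 245 CPM.

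**Figure D5:**
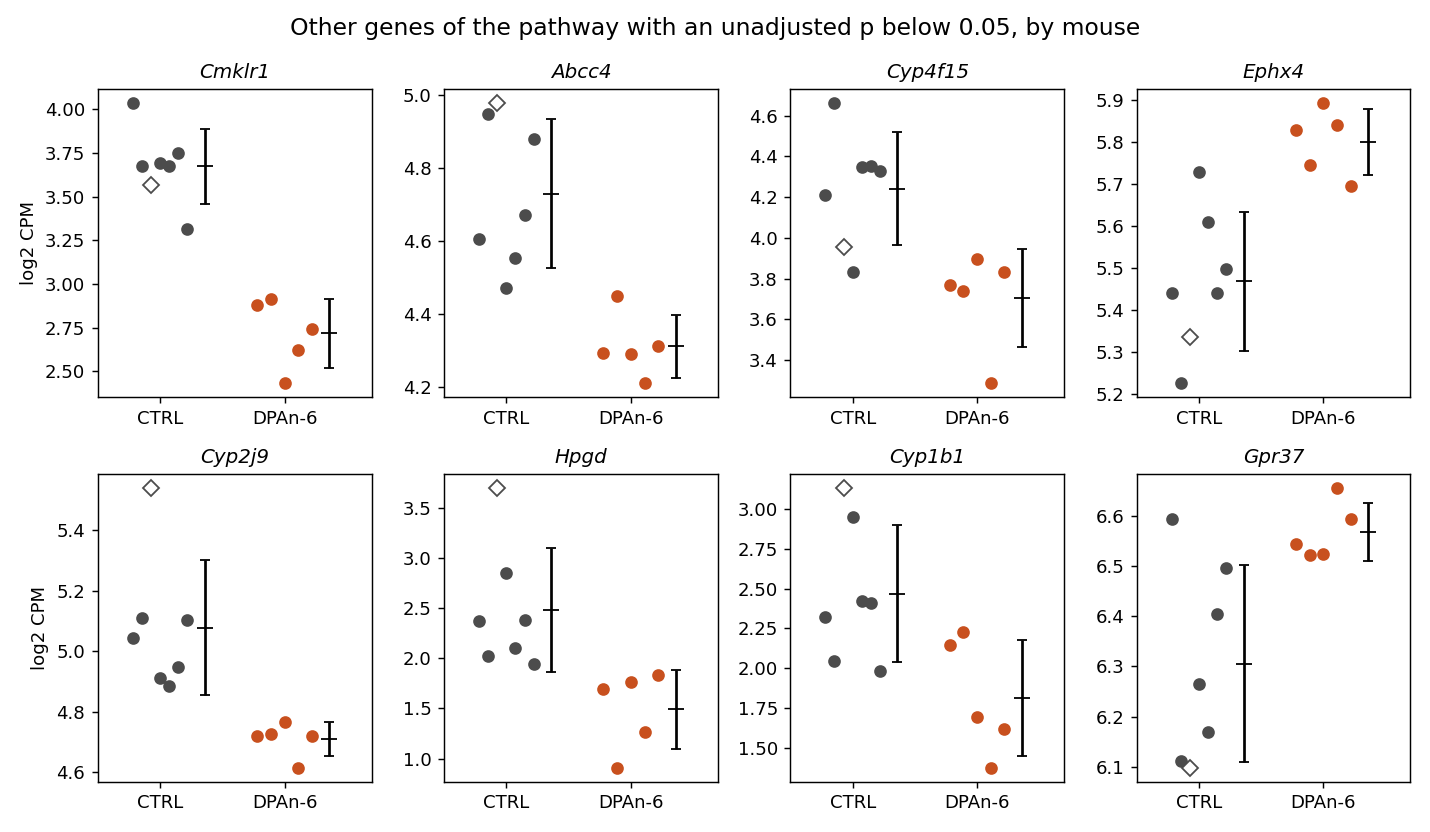
Each panel shows the log2 CPM of 1 gene in 7 CTRL mice (grey, replicate 3 as an open diamond) and 5 DPAn-6 mice (orange), with the mean and SD of each group. The groups are apart for Cmklr1, Abcc4, Cyp2j9 and Hpgd, a separation that 1.49% of all genes tested showed towards lower values. The genes shown were chosen by an unadjusted p on these same values. Ephx4 and Gpr37 are the 2 genes that lie higher in DPAn-6.

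The genes whose values followed each member most closely over the 12 mice, with each group centred on its own mean, are given as a description. For Alox5ap they were Anapc5 (r = 0.984), Nsmf (0.979) and Rgl2 (0.972), and for Ltc4s they were Mmp24 (0.977), Brsk1 (0.974) and Dok1 (0.973). None of these 6 is a microglial marker of the list, and with CTRL replicate 3 left out their r was 0.942 to 0.964. For Ephx1 they were Otof (0.920), BC030343 (0.909) and Cand2 (0.906). For Ephx2 they were Csf1r (0.937), a microglial receptor, Npc2 (0.933) and Aldh9a1 (0.906). Lta4h was nearest to Klhl22, Gcdh and Eef1akmt1 at 0.978 to 0.980, and at 0.885 to 0.905 without CTRL replicate 3. Alox5 followed Dqx1, Zranb3 and Mxra8 (0.858 to 0.871), Alox8 followed Trim9, Gpr179 and A930015D03Rik (0.868 to 0.895), and Alox12b followed Tdp1, Atg16l2 and Ctnnbip1 (0.922 to 0.937). These points share the library, its total and its composition.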

How the data were processed

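Poly(A) RNA of cortex from 12 mice, 1 library each, was sequenced, and the authors deposited raw counts per gene from STAR gene counting (STAR 2.5.3a by the submitters' processing notes, Ensembl annotation 88 on GRCm38 by the study's methods). The strand setting of the counting is not given in the sources used here. Names, positions and exon lengths came from GENCODE M21, which matched 50339 of 50563 identifiers. The 10 members and all lists were chosen with earlier results of these data known.

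Groups came from the sample titles. Genes kept by edgeR's filterByExpr were scaled by TMM and tested with edgeR 4.0.16 (quasi-likelihood, R 4.3.3, no covariate), with Benjamini-Hochberg adjustment over 15688 genes and calls at an adjusted p under 0.05. The study's methods name limma-voom, an alternative here (limma 3.58.1), as was DESeq2 1.42.0. Single genes were compared by two-sided exact permutation of mean log2 CPM over 792 splits (NumPy 2.4.6), and intervals relative to microglial markers came from inverting that test. Intervals of the edgeR fold changes used SciPy 1.17.1. The fits were tested on simulated data. Nothing says whether mice shared a litter, so p values measure the spread between these mice, and the limit for 0 reads covers counting error only.

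Named were all members, every pathway gene at an unadjusted p under 0.05 (at most 12), markers that define a type or sit at 0, and for members of at least 1 CPM the 3 genes most correlated after each group was centred. Cysltr1, Ltb4r1, Ltb4r2, Cyp2c55, the Cyp4f genes other than Cyp4f15, the Cyp2j genes other than Cyp2j9 and the markers with reads were named after their values were seen. Alternatives changed the tool, scaling, filter, pseudocount, length, mice and covariates (age, Xist for sex, replicate number). Ttr as a covariate and removal of a trend on length and GC were added after the data were seen.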

Additional observations from a re-analysis of the deposited data

Results flagged for a closer look

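Among 36 sets of values, 18 genes in each of the 2 groups, 5 held a mouse far from the rest of its group by Dixon's criterion, which chance meets in about 1 of 20 sets. CTRL replicate 3 was the mouse in 3 of the 5. It was the lowest CTRL mouse for Alox12b, at 2.41 log2 CPM with the next at 2.88, and for Lta4h, at 4.63 with the next at 5.04. It was the highest for Cyp2j9, at 5.54 with the next at 5.11. CTRL replicate 2 was the highest for Ephx1, at 5.23 with the next at 5.00, and without it the log2 fold change of Ephx1 was −0.32 with an edgeR adjusted p of 0.0528. DPAn-6 replicate 4 was the lowest for Cyp4f15, at 3.29 with the next at 3.74.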

How the results depend on the processing

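The number of genes called over the whole table, 243, was 9 in the 14-month mice, 687 with DESeq2, 17 with Ttr as a covariate and 491 after removal of the trend on length and GC, and it ran from 64 (without DPAn-6 replicate 3) to 953 (without CTRL replicate 3) when mice were left out. The number of pathway genes called, 2, was 1 in the 14-month mice, with Ttr or age as a covariate, on library totals, with limma-voom and without the filter on low counts, 6 with DESeq2 and 5 with the trend removed, and 1 to 7 when mice were left out. The cause of these shifts was not tested. Ephx1 stayed below 0 in all 24 alternatives, from −0.43 to −0.27, with an adjusted p under 0.05 in 8. It lost the call in the 14-month mice (adjusted p 0.418), on library totals (0.0564) and without the filter (0.0779). The call was kept with limma-voom (adjusted p 0.0437), with DESeq2 (0.00158) and with the trend removed (0.0235). With Xist as a covariate the edgeR adjusted p was 0.0303, and with age it was 0.0479. Cmklr1 was called in 24 of 24 alternatives. On library totals 34.2% of the calls were higher in DPAn-6 against 26.3% with TMM. Replicate numbers are only names here, since deviations of same-numbered mice correlated at −0.15 to 0.20. With the replicate number as a block, 79 genes were called, 11.4% of them higher, 1 of them a pathway gene, Ephx1 had an adjusted p of 0.173 and Ephx2 a log2 fold change of −0.0043.

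Members near 0 changed sign. With Ttr as a covariate Alox5 was at 0.065, Alox8 at 0.27, Alox12b at 0.071, Lta4h at −0.050 and Ephx2 at −0.015, and with the trend removed Ephx2 was at −0.034. Alox8 was at 0.014 in the 14-month mice, 0.0022 with DESeq2 and with the 1 CPM filter, 0.0076 with age, 0.021 on library totals, 0.022 with limma-voom and 0.017 without the filter. In the 14-month mice Alox12b was at 0.047 (0.091 as a difference of means), and relative to the microglial list Alox5ap was at −0.035 and Ltc4s at −0.066. With mice left out, log2 fold changes ran from −0.060 to 0.083 for Alox8, −0.11 to 0.010 for Alox12b, −0.029 to 0.053 for Lta4h and −0.033 to 0.073 for Ephx2. Differences of mean log2 CPM ran from −0.27 to 0.015 for Alox5, −0.014 to 0.12 for Alox8, −0.10 to 0.033 for Alox12b, −0.014 to 0.080 for Lta4h and −0.014 to 0.10 for Ephx2. Relative to the microglial list they ran from −0.067 to 0.14 for Alox5ap and −0.12 to 0.18 for Ltc4s, with the lowest value without CTRL replicate 3.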
